A study of Caenorhabditis elegans with 2 samples.

Results

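Binding of ATHP-1, a nuclear protein that has AT-hooks and a PHD finger, was examined at 43 genes that mark the main somatic tissues of Caenorhabditis elegans. The genes were taken by name from lists of tissue markers, 12 for the intestine, 15 for body wall muscle, 7 for the pharynx and 9 for the hypodermis (the epidermis that makes the cuticle). All 43 were found among the 19973 protein-coding genes on chromosomes I to V and X. Anti-GFP chromatin immunoprecipitation and sequencing (ChIP-seq) had been done on whole young adults of strain OP685, which carry unc-119(tm4063) on chromosome III and the transgene wgIs685, integrated into the genome, for ATHP-1 with a GFP-FLAG tag at its carboxy terminus. There was 1 group with 2 biological replicates, of mixed sex, grown for 64 hours after first-stage larvae starved from hatching were released. Both replicates share the strain, the mutation and the transgene, so no worms without them serve as a reference here, and neither the tissues in which the transgene is expressed nor RNA levels of the markers were analysed here. Since whole animals were used, binding in few nuclei and weak binding in many cannot be told apart.

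AT-hooks contact the minor groove of AT-rich DNA, and PHD fingers are best known as readers of histone tails. The intestine is a single tube of large polyploid cells whose genes are driven by GATA factors, above all ELT-2. Body wall muscle and the pharynx are both contractile, and HLH-1, the worm MyoD, and PHA-4, a FoxA factor, specify them. The hypodermis depends on the GATA factors ELT-1 and ELT-3 and on LIN-26, and it secretes the collagens of the cuticle. Terminal genes of these tissues, such as the myosins and collagens, are silent in the germ line, which holds a large share of the nuclei of an adult.

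Binding was read from the authors' region lists on ce11. Their reproducible list, selected by the irreproducible discovery rate, which scores how well replicate ranks agree, held 1649 regions and was the same as the 1649 strongest of 30000 regions called on both replicates together (the pooled list). Each replicate also had a list of 30000. A gene was counted when a summit, the highest point of a region, lay inside it or in a window around any annotated 5′ end that reached 1000 bp upstream and 500 bp downstream. A replicate was given a value at a pooled summit only when its own summit lay within 100 bp. Signal is the authors' score of a region's strength, with a lowest value of 106 in the reproducible list and 25.1 in the pooled list; it has no error of its own, and the read depth behind it is unknown.

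The sequences that carry the result are given first, on the strand of the gene from 5′ to 3′, from the RefSeq assembly WBcel235, the same build as ce11. Capitals mark matches on either strand to the words TGATAA (bound by GATA factors), CAGCTG (the E-box of HLH-1), TGTTTAC (1 form of the PHA-4 site), AAATTT (AT-rich) and, in summit windows, GGTTCGA, a word from tRNA genes. The first is the 300 bases around the summit at asp-1, the only reproducible summit that met the rule (chrV:19050460-19050759, minus strand). The second is the 300 bases around a reproducible summit upstream of ftn-1, just beyond the searched window (chrV:7548524-7548823, minus strand). The next 3 are 121 bases around the pooled summits at unc-22 (chrIV:12005502-12005622, minus strand), dim-1 (chrX:8053160-8053280, minus strand) and act-5 (chrIII:13606121-13606241, minus strand), the markers closest below the reproducible list. These 3, the window at ftn-1 and the word GGTTCGA were chosen after the values were seen.
asp-1: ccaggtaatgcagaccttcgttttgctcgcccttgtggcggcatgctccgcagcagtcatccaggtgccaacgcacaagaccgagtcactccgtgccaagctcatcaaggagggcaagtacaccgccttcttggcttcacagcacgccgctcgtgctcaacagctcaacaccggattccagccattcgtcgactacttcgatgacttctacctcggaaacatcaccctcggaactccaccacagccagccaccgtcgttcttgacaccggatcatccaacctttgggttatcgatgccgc
ftn-1: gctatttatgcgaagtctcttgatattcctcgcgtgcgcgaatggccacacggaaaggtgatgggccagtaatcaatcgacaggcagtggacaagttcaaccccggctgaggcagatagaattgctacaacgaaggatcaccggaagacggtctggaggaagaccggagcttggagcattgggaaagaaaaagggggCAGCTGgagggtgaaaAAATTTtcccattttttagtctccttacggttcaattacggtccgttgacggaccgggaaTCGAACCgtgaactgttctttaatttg
unc-22: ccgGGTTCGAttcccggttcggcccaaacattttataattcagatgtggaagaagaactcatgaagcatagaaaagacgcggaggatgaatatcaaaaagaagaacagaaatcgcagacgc
dim-1: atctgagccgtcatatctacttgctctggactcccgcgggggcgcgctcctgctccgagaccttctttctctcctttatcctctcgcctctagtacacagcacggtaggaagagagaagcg
act-5: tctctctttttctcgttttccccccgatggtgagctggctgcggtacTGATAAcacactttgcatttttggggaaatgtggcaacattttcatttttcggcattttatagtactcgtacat
The asp-1 window held none of the 5 words and had a GC content of 57.3%, against a median of 39.7% for windows of that length at all 1649 reproducible summits. In the ftn-1 window CAGCTG was matched at position 198 from its first base, AAATTT at position 214 and GGTTCGA, on the other strand, at position 274. The share of all reproducible windows of 300 bases was 6.43% with CAGCTG and 47.2% with AAATTT. The unc-22 window held GGTTCGA and the act-5 window TGATAA, and none of the words was in the dim-1 window. In windows of 121 bases GGTTCGA was present in 1 of the 116 pooled regions at the markers (0.862%), in 8.73% of reproducible regions and in 2.11% of all pooled regions.

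Few somatic markers reached the authors' reproducible list. Of the 43, only asp-1 had a reproducible summit (2.33%, exact 95% binomial interval 0.0589 to 12.3%), beside 1548 of all 19973 protein-coding genes (7.75%). The interval, which covers counting error only, includes the value of all genes. By tissue the counts were 1 of 12 in the intestine (8.33%, interval 0.211 to 38.5%), 0 of 15 in body wall muscle, 0 of 7 in the pharynx and 0 of 9 in the hypodermis. The counts of 0 allow shares of up to 21.8% in muscle, 41.0% in the pharynx and 33.6% in the hypodermis at the upper end of the exact interval. The interval of each tissue thus includes the 7.75% of all genes, and these counts do not separate a tissue from it. With 1 group and 2 replicates no test between conditions was possible.

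Weaker regions were common at the same genes. A pooled region of any strength was present at 32 of 43 markers (74.4%), beside 56.2% of all protein-coding genes. Among the 5000 strongest pooled regions 9 of 43 markers had a summit (20.9%), beside 19% of all genes, so at this depth of the list the markers stood close to the background. Those 9 were act-5, mtl-2 and asp-1 in the intestine, unc-22, act-4, unc-27, dim-1 and deb-1 in muscle, and dpy-13 in the hypodermis. No pharynx marker was among them. The strongest pooled region of the 32 had a median signal of 54.8 and a median rank of 6996, where rank 1 is the strongest, beside 50.8 and 8423 over the 11227 genes with a region. That order turned when gene bodies were left out, with a median rank of 10920 at the 25 markers and 8944 at the genes that then had a region.

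**Figure D1:**
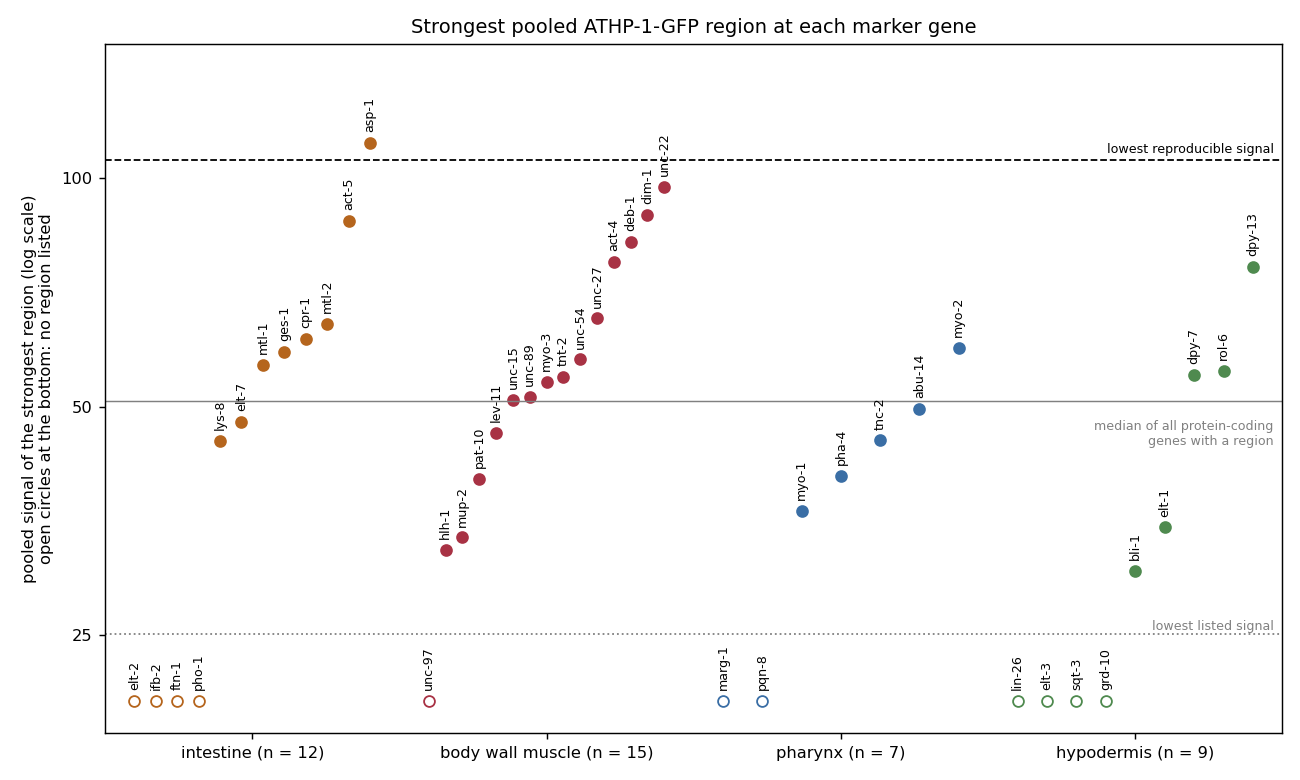
Signal of the strongest pooled region at each marker gene (log axis), with genes ordered by signal within each tissue and open circles for genes with no pooled region. Only asp-1 stands above the dashed line at 106, the lowest reproducible signal; the grey line is the median of 50.8 over all protein-coding genes with a region.

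Among the intestine markers, asp-1, which encodes an aspartyl protease, led. The gene (WBGene00000214, V:19049562-19050752, minus strand) is a single exon, and its reproducible region at V:19050400-19050819 had its summit in the coding sequence, 142 bp past the 5′ end. Its pooled signal was 111 at rank 1481 of 1649, near the lower end of the reproducible list, with a −log10 q-value of 2.99. At that summit replicate 1 gave a signal of 34.2 (rank 5619) and replicate 2 gave 77.3 (rank 886). Replicate 2 gave the higher value there, and the strongest region of replicate 1 at this gene lay elsewhere, near the 740 bp summit, with 41.8 (rank 3222). Weaker pooled regions of 66.5, 50.2 and 33.4 lay 740 bp past the 5′ end, 61 bp before it and 1061 bp past it. No other protein-coding gene shared the reproducible summit.

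The ferritin gene ftn-1 (WBGene00001500, V:7546468-7547579, minus strand) had no region in any list by the rule, yet a reproducible summit stood 1095 bp upstream of its 5′ end. That region (V:7548464-7548883) had a pooled signal of 140 at rank 879. Both replicates held it, at 57.8 (rank 1393) in replicate 1 and 82.6 (rank 736) in replicate 2, so it was among the 1649 strongest of each. The region's nearer edge was 885 bp upstream, inside the window, so that counting any overlap in place of the summit would give 2 markers in the reproducible list. No other protein-coding gene lay within 3000 bp of the summit. Its signal was higher than that of any region counted at a marker.

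The intestinal actin gene act-5, which builds the microvilli, had a pooled region of 87.7 (rank 2430) centred 115 bp upstream of the 5′ end and another of 75.3 in the coding sequence. Replicate 1 gave 64.1 at the upstream summit (rank 1084), while replicate 2 had no summit within 100 bp of it. The best value of replicate 2 at act-5 was 27.5, 113 bp past the 5′ end, in a region that overlapped the upstream pooled region. Actin genes are near-identical in their coding parts, and the sources used here do not say how reads matching several of them were treated, which leaves the coding region uncertain. The metallothionein gene mtl-2 reached 64.2 in the pooled list and 36.9 in replicate 2, and replicate 1 listed no region. The same held for mtl-1, the other metallothionein gene, with 56.7 pooled and 33.9 in replicate 2. The gut esterase gene ges-1 showed the opposite, with 59.1 pooled, 600 bp upstream, and 48.9 at that summit in replicate 1, and none in replicate 2. The cysteine protease gene cpr-1 had 61.3 pooled, with 36.6 in replicate 1 at that summit and none there in replicate 2, whose best value at the gene was 23.6. The lysozyme gene lys-8 had 45.1, with 33.6 in replicate 2 at that summit and none there in replicate 1, whose best value was 24.2. Of the 2 intestinal GATA factor genes, elt-7 had a pooled signal of 47.7 and elt-2 had no pooled region, only 1 of 24.2 in replicate 2. The intermediate filament gene ifb-2 and the acid phosphatase gene pho-1 had no region in any list.

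**Figure D2:**
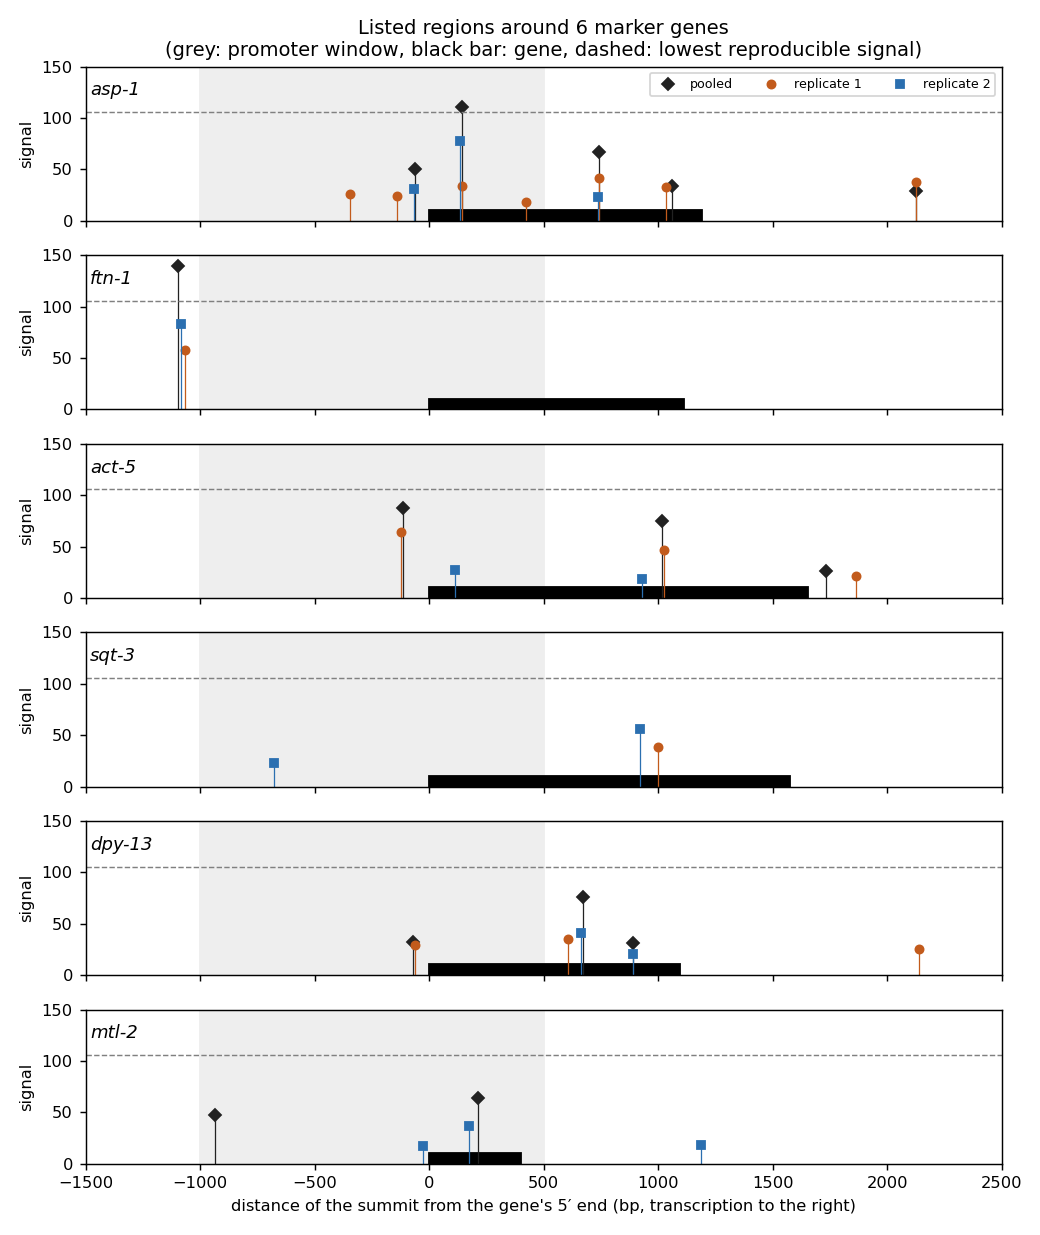
Listed regions around 6 marker genes, as signal against distance of the summit from the gene's 5′ boundary, for the pooled list and both replicates; grey is the promoter window and the black bar the gene. At asp-1 the summit of 111 lies 142 bp inside the gene, and at ftn-1 all 3 lists place a summit just left of the window; sqt-3 has replicate regions of 38.5 and 55.7 and no pooled one.

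Body wall muscle markers nearly all carried regions below the reproducible list. A pooled region was present at 14 of 15 (93.3%; all genes 56.2%) and a region among the 5000 strongest at 5 of 15 (33.3%; all genes 19%), but none was reproducible. Many of these markers are long, with a median of 7.59 kb searched. Over all genes with 6 kb or more searched, 80.3% had a pooled region and 32.0% had one among the 5000 strongest. Other muscle markers were shorter, such as unc-27 (2.17 kb searched) and act-4 (4.79 kb), both among the 5000 strongest, and unc-97 (2.83 kb), with no region. Over all genes these shares were 44.8% and 13.9% under 3 kb, and 61.2% and 20.3% from 3 to 6 kb. With gene bodies left out, a pooled region was present at 13 of 15 muscle markers (86.7%; all genes 43.7%). A region among the 5000 strongest was then present at 4 of 15 (26.7%; all genes 14.9%). The part of length in the muscle counts was not tested. The giant kinase gene unc-22, which encodes twitchin, came closest to the reproducible list, with a pooled signal of 97.4 at rank 1951. Both replicates listed this summit, at 55.0 in replicate 1 (rank 1588) and 45.7 in replicate 2 (rank 3095). It lay in a coding exon within 200 bp of a tRNA gene, WBGene00014625 (IV:12005598-12005669, minus strand), whose part in the signal was not tested. The Ig-repeat gene dim-1 followed at 89.5 (rank 2327) in an intron, within 200 bp of the noncoding RNA genes C18A11.11 and C18A11.12. Within 100 bp of that summit, replicate 1 had 16.5 and replicate 2 had 38.8. The best value of replicate 1 at dim-1 was 48.3, at another summit of the same intron, in a region that also covered the pooled summit. The vinculin gene deb-1 had 82.4, with even values of 39.4 in replicate 1 and 42.1 in replicate 2. A reproducible summit of 134 at the ribosomal protein gene rps-4 lay just past the 3′ end of deb-1. The actin gene act-4 had 77.5 in an intron, with 55.5 in replicate 1 and 24.4 in replicate 2. The troponin I gene unc-27 had 65.3 upstream of its 5′ end, within 200 bp of the noncoding RNA gene ZK721.6. Replicate 1 gave 47.1 at that summit, and replicate 2 had no summit within 100 bp of it. The best region of replicate 2 at unc-27, of 22.1, had its summit farther upstream but covered the pooled summit.

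After unc-22, the myosin and thick filament genes of body wall muscle lay between 51.0 and 57.7. The main body wall myosin gene unc-54 had 57.7, 123 bp upstream of its 5′ end, with 44.2 in replicate 2 at that summit, while replicate 1 listed none there and its best value, 30.6, lay in a coding exon. The second body wall myosin gene, myo-3, had 53.9, the paramyosin gene unc-15 had 51.0 and the obscurin gene unc-89 had 51.4. The 55184 bp of unc-89 held 19 pooled regions and the 38311 bp of unc-22 held 18, of 74 at all muscle markers. The thin filament genes tnt-2 (troponin T), lev-11 (tropomyosin), pat-10 (troponin C) and mup-2 (troponin T) had 54.7, 46.1, 40.1 and 33.6. The muscle factor gene hlh-1 had 32.4, and unc-97, which encodes an attachment protein of the PINCH type, was the 1 muscle marker with no region in any list.

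Pharynx markers had the lowest median signal of the 4 tissues among genes with a pooled region; with genes lacking one placed last, the median rank was 13720 in the pharynx and 22970 in the hypodermis, so the order turned. Their strongest pooled signal was 59.8 at the pharyngeal myosin gene myo-2, with 23.8 in replicate 1 and 30.4 in replicate 2 at that summit. The gene abu-14 had 49.7, the pharyngeal troponin C gene tnc-2 had 45.1, the FoxA factor gene pha-4 had 40.5 and the second pharyngeal myosin gene, myo-1, had 36.5. The gene marg-1 had weak regions in both replicates (24.99 in replicate 1 and 20.1 in replicate 2) and none in the pooled list, and pqn-8 had none at all. The median over the 5 genes with a pooled region was 45.1, below the 50.8 of all genes with a region.

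Collagen genes led the hypodermis markers. The cuticle collagen gene dpy-13 had 76.3 (rank 3312) in its coding exon, with 35.1 in replicate 1 and 41.0 in replicate 2. The collagen genes rol-6 and dpy-7 followed at 55.8 and 55.0, also in coding exons, and bli-1 had 30.4. The collagen gene sqt-3 had no pooled region, although replicate 1 listed 38.5 (rank 4068) and replicate 2 listed 55.7 (rank 1964) in its coding sequence, with summits at V:12353743 and V:12353668. The epidermal factor genes elt-1, elt-3 and lin-26 were low. For elt-1 the pooled signal was 34.7, for lin-26 no pooled region was listed and replicates 1 and 2 gave 20.2 and 20.95, and elt-3 had 19.3 in replicate 2 alone. The hedgehog-related gene grd-10 had 24.1 in replicate 1 and 24.4 in replicate 2 and no pooled region.

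Grouped by what the genes encode, transcription factors had the lowest median signal among genes with a region. Of 7 factor genes 4 had a pooled region, near the 56.2% of all genes, with a median signal of 37.6 and a range of 32.4 to 47.7, and none was among the 5000 strongest. The 7 thick filament and myosin genes all had one, with a median of 53.9, and 9 of 10 thin filament and attachment genes did, with a median of 54.7. The thick filament and myosin genes are long, with from 7.59 kb (unc-15) to 56.2 kb (unc-89) searched. Over all genes with 6 kb or more searched, 80.3% had a pooled region. The part of length in these counts and medians was not tested. The 8 intestinal enzyme, metal and defence genes had 6, with a median of 60.2, and the 5 collagen genes had 4, with a median of 55.4. Only 1 of the 4 secreted and other genes had a region, abu-14 with 49.7. Medians here cover only the genes with a pooled region. These are descriptions of short lists, and the range of the factor genes overlapped that of the filament, enzyme and collagen genes.

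By matched summits, the replicates shared regions at the markers about as often as at all genes. Replicate 1 listed a region at 32 of 43 markers (all genes 60.3%) and replicate 2 at 35 (all genes 60.1%), with 29 in both, 3 in replicate 1 only (ges-1, tnc-2 and bli-1) and 6 in replicate 2 only (elt-2, mtl-1, mtl-2, mup-2, pat-10 and elt-3). The 5 in neither were ifb-2, ftn-1, pho-1, unc-97 and pqn-8. With the pooled list included, the same 5 markers and 5366 of the 19973 genes had no region. The other parts of this split were not counted over all genes, so they are a description only. Signal was higher in replicate 1 at 14 of the 29 shared genes, so neither replicate was the higher one throughout. Among the 1649 strongest regions of replicate 1 were summits at 3 markers, act-5, unc-22 and act-4 (all genes 7.61%), and among those of replicate 2 at 1, asp-1 (all genes 7.98%). No marker was on both lists, where 5.15% of all protein-coding genes were. Of the 116 pooled regions at the markers 34 (29.3%) had a summit of each replicate within 100 bp, beside 28.6% of the 24984 pooled regions at all protein-coding genes. By tissue these were 5 of 17 in the intestine, 23 of 74 in muscle, 2 of 16 in the pharynx and 4 of 9 in the hypodermis.

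**Figure D3:**
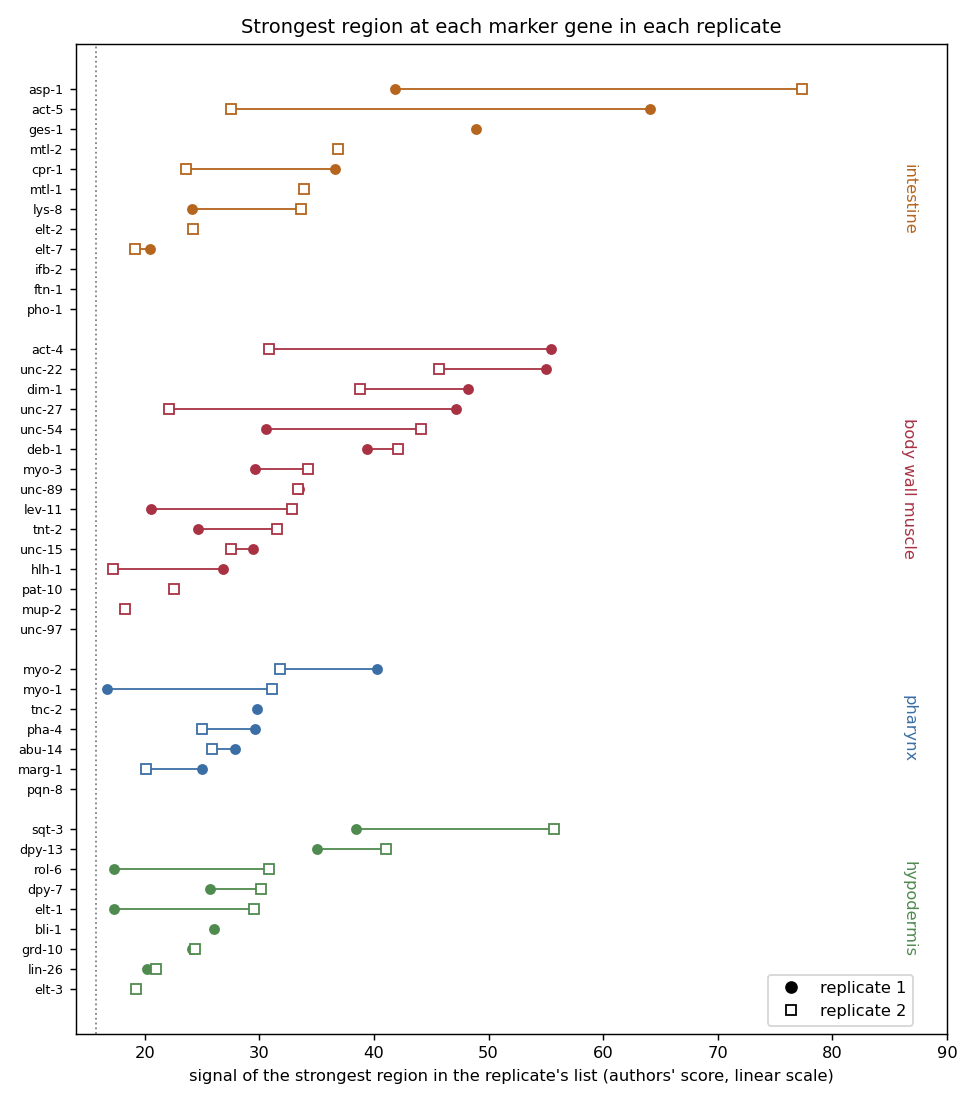
Signal of the strongest region at each marker gene in replicate 1 (filled circles) and replicate 2 (open squares), joined where both listed one; an empty row is a gene with none. The wide lines at asp-1 (41.8 and 77.3), act-5 (64.1 and 27.5) and unc-27 (47.1 and 22.1) show the largest differences among genes listed in both replicates. Genes listed in 1 replicate only, such as ges-1 (48.9 in replicate 1), have no line. The 2 symbols of a gene may stand at different summits.

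Summits at the markers lay mostly inside genes. Of the 116 pooled regions 59 (50.9%) had their summit in a coding exon, 38 (32.8%) in an intron, 4 in an untranslated exon and 15 (12.9%) outside the gene. Over all protein-coding genes 33.0% were in a coding exon, 31.8% in an intron, 7.70% in an untranslated exon and 27.5% outside the gene. The long genes unc-89 and unc-22 held 19 and 18 of the 116 regions, with all summits in coding exons or introns. Their weight in these shares was not tested. With only the strongest region of each gene, 14 of 32 at the markers (43.8%) and 29.1% at all genes were in coding exons. Reproducible regions had another distribution, with 9.33% in coding exons and 61.9% outside the gene, of 1736 region-gene pairs over all protein-coding genes. The GC content of 300 bases around the summit had a median of 44.7% at the markers, 39.7% at reproducible regions and 40.0% at all pooled regions. Coding exon summits had 45.7% at the markers, against 42.3% at all genes, and those outside the gene had 49.3%, against 37.7%, again by region-gene pairs.

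**Figure D4:**
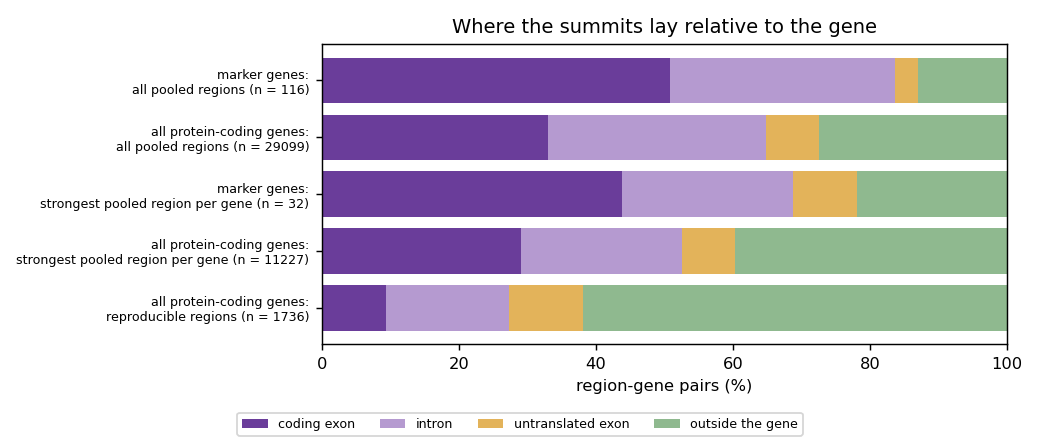
Share of region-gene pairs with the summit in coding exons, introns, untranslated exons and outside the gene, for pooled regions at the markers and at all protein-coding genes, and for reproducible regions at all genes. A region counts once for each gene that holds its summit. Coding exons make up 50.9% of pooled pairs at the markers and 9.33% of reproducible pairs at all genes.

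Gene size and chromosome were set beside these counts, since a longer gene offers more places for a summit. The markers had a median length of 2417 bp, against 2027 bp for all genes, and muscle markers had 6594 bp. Per kb searched there were 0.416 pooled regions at the markers and 0.344 at all genes, with 0.480 in the intestine, 0.428 in muscle, 0.420 in the pharynx and 0.278 in the hypodermis. Reproducible regions were at 0.359 per 100 kb at the markers and 2.05 at all genes. In genes with under 3 kb searched, 1 of 18 markers (5.56%) and 5.69% of all genes had a reproducible summit; with 3 to 6 kb it was 0 of 12 and 8.20%, and with 6 kb or more 0 of 13 and 13.1%. The X chromosome, on which 3.37% of genes had a reproducible summit against 8.44% on the autosomes, held 11 of the 43 markers (25.6%) and 13.7% of all genes. None of the 11 X-linked markers and 1 of 32 autosomal ones (3.12%) had such a summit. From a marker's 5′ ends the nearest reproducible summit had a median distance of 37680 bp, against 26650 bp for all genes, from 142 bp at asp-1 to 203315 bp at dpy-7.

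Other genes of the same tissues stood near the 7.75% of all genes, and germline genes well above it. Reproducible summits were found at 2 of 24 other intestine genes, 2 of 26 other muscle genes, 0 of 18 other pharynx genes and 1 of 23 other hypodermis genes, in all 5 of 91 (5.49%, exact 95% interval 1.81 to 12.4%, which includes 7.75%). Those were pgp-1, a transporter gene, with a signal of 153 beside a tRNA gene, end-3, a GATA factor gene of the early endoderm, with 129, the cofilin gene unc-60 with 173, the actin gene act-2 with 118 and the hedgehog-related gene wrt-2 with 107. The summit at unc-60 was shared with another protein-coding gene, and the summit at act-2 lay within 200 bp of noncoding RNA genes. The neuron list had 2 of 19, snb-1 (synaptobrevin) with 163 and unc-31 with 109, the second beside the snRNA gene ZK897.4. The germline and oocyte list, in contrast, had 13 of 28 (46.4%, interval 27.5 to 66.1%), above the interval of the markers. The highest of these were cpg-1, an eggshell proteoglycan gene, with 371, mex-1 with 228 and pie-1 with 169, both of which encode zinc finger proteins of the early embryo. The median of the strongest pooled signal was 54.8 at the markers and 99.97 at the germline list, and the summed span held 0.416 and 1.07 pooled regions per kb. The germline list had been seen to be rich in binding in earlier results of these data, so its count is no independent evidence. It also held 0 X-linked genes, against 11 of the 43 markers, and X-linked genes less often had a reproducible summit. The part of this imbalance in the contrast was not tested.

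**Figure D5:**
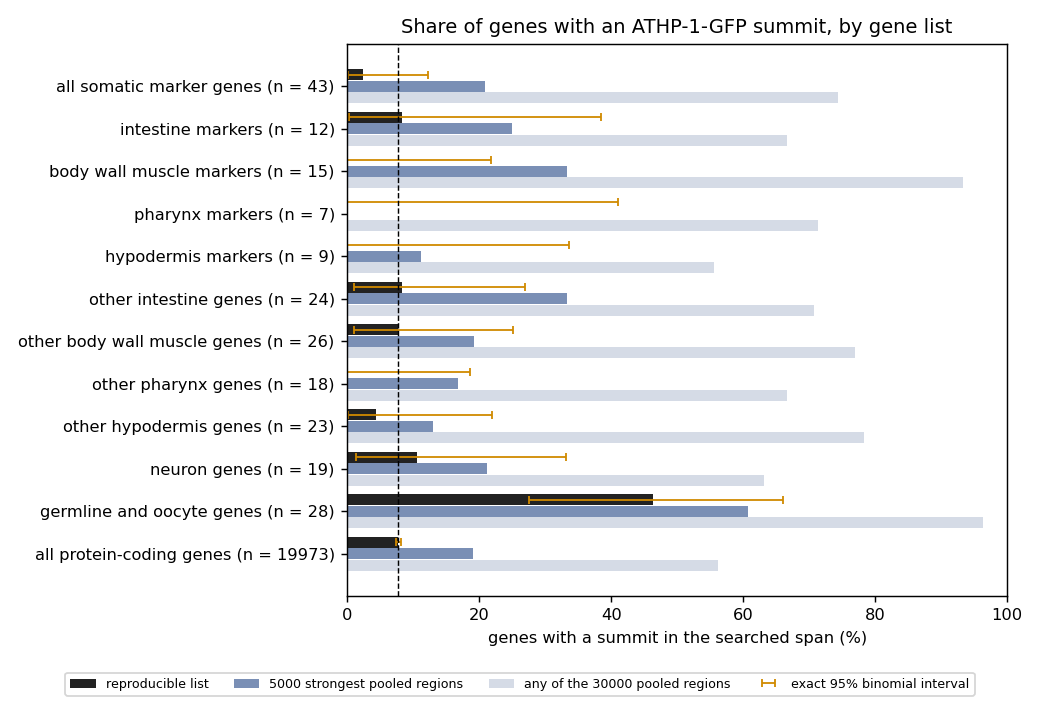
Percent of genes with a summit in the reproducible list, the 5000 strongest pooled regions and the whole pooled list, by gene list, with exact 95% intervals on the first. The markers are at 2.33%, 20.9% and 74.4%, the germline and oocyte genes at 46.4%, 60.7% and 96.4%, and all protein-coding genes at 7.75%, 19% and 56.2%, the first of which is the dashed line.

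Promoters of the tissue factors are shown because the regions listed there were weak or absent. Each runs from 250 bp upstream to 50 bp downstream of the 5′ boundary, for elt-2 (chrX:10480990-10481289, plus strand) and for hlh-1 (chrII:4518324-4518623, plus strand), with the same words in capitals.
elt-2: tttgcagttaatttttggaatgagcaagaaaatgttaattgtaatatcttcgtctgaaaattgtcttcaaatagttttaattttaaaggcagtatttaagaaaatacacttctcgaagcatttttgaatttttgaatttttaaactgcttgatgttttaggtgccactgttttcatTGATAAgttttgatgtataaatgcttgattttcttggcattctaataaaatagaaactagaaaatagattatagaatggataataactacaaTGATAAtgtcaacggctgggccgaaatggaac
hlh-1: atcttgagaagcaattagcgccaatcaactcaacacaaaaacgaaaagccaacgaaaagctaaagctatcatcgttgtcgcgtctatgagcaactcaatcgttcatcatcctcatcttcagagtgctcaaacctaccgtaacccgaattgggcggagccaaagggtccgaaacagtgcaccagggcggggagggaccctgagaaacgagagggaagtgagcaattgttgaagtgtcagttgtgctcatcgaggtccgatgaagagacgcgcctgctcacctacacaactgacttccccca
The elt-2 promoter held TGATAA at positions 177 and 269 from its first base and no listed summit in the pooled list. The hlh-1 promoter held none of the 4 words, and a pooled summit of 32.4 lay 31 bp upstream of the 5′ end within it. TGATAA stood in the promoters of 19 of 43 markers (44.2%) and of 30.2% of all protein-coding genes. It was in 10 of 12 intestine promoters (83.3%), 5 of 15 in muscle, 1 of 7 in the pharynx and 3 of 9 in the hypodermis. The 2 intestine promoters without it were those of asp-1, the 1 marker in the reproducible list, and ges-1. The ftn-1 promoter held TGATAA, and the reproducible summit just beyond the searched window of ftn-1 had a higher signal than that of asp-1. TGATAA was also in the promoters of act-5 and mtl-2, which followed asp-1 in pooled signal among the intestine markers. Whether this word and binding go together was not tested. AAATTT was in 17 of 43 marker promoters (39.5%) and 53.0% of all, beside 64.3% of germline promoters. CAGCTG was in 1 marker promoter, that of mtl-2, and 5.55% of all, and TGTTTAC was in 3 (6.98%) and 4.77% of all. Promoter GC content had a median of 38.7% at the markers, highest in the pharynx at 48.0%, against 34.3% at all genes. These are counts of letters in fixed windows and carry no evidence about the factors themselves.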

How the data were processed

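Anti-GFP ChIP-seq of 2 replicates of whole young adult worms was analysed from the authors' region lists on ce11; the ce10 versions were not used. Per the deposited readme text, the authors called each replicate list from that replicate's alignment against a control alignment, the pooled list from both alignments and a control, and the reproducible list from the replicate and pooled lists. For the aligner, caller, thresholds and depth the record used here states nothing, and the precision set by depth is therefore unknown. The signal is a score deposited by the authors that has no fixed range; it was used only to rank and describe regions within a list, as was the deposited −log10 q-value.

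Genes came from Ensembl release 115 (WBcel235, which is ce11). Summits were assigned to every protein-coding gene whose window or body held them, in Python 3.11.15 with numpy 2.4.6, pandas 2.3.3 and scipy 1.17.1, and plotted with matplotlib 3.10.9. Assignment was checked on simulated summits. Sequences and promoters came from RefSeq's genome of that build, since no separate promoter table was given. Regions of 2 lists were matched within 100 bp, and intervals are exact Clopper-Pearson intervals at 95% that cover counting error only. The members and lists were chosen with earlier results of these data known. Named genes are all 43 members, genes sharing or within 200 bp of their reproducible summits and up to 3 genes of each comparison list with a reproducible summit. The noncoding genes at unc-22, dim-1 and unc-27, and rps-4, were named after their values were seen. Alternatives changed the window, the assignment, the threshold, the list and the treatment of small RNA genes. The replicates may share technical sources, and no difference between conditions could be tested.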

Additional observations from a re-analysis of the deposited data

How the results depend on the processing

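The count of markers in the reproducible list stayed at 1 (asp-1) when gene bodies were left out. This held for a narrow window (500 bp upstream to 200 bp downstream) and for the window of 1000 bp upstream to 500 bp downstream. The count also stayed at 1 with gene bodies only, with assignment to the nearest 5′ end and with removal of summits at small RNA genes. Any overlap in place of the summit gave 2 (asp-1 and ftn-1, both intestine; all genes 9.5%), the stronger part of the list (824 regions) 0 in all and in the intestine, and the 5000 strongest pooled regions 9, of which 3 were intestine, 5 muscle and 1 hypodermis. Single replicates gave 1 to 3 markers in all and 0 to 2 in muscle; replicate 1 alone gave act-4, act-5 and unc-22 in place of asp-1. The share of all genes was 4.74% with the narrow window, 3.06% with gene bodies, 4.25% with the stronger part of the list and 19% with the 5000 strongest. Overlap put 1 marker (ftn-1) among the strongest of both replicates (all genes 6.35%). The median rank of 6996 became 11920 with the narrow window and 10920 with the window of 1000 bp upstream to 500 bp downstream, both without gene bodies. All genes had 8707 and 8944 there, so the order of markers and all genes turned in these settings. With gene bodies alone the median rank was 8262 at the markers and 11100 at all genes. In single replicates it was 8082 to 8244 (all genes 9176 and 9296). Chosen after the data were seen, it was 9706 with markers lacking a region placed last (all genes 22990) and 8170 with autosomal markers only (autosomal genes 8077). Why the values moved was not tested. No paired analysis was possible because there was 1 group. With 7 to 15 genes a tissue, the interval of each tissue under the main rule includes the share of all genes, so these counts do not separate a tissue from it.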

Other observations

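At sqt-3 both replicates placed a region among their 5000 strongest within 100 bp of each other, yet the nearest pooled summit was 10017 bp away. Of 2074 such replicate pairs genome-wide, 21 had no pooled summit within 1000 bp, and sqt-3 was the 1 marker among them. The comparison was chosen after the values were seen, and the cause was not tested.

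In windows of 300 bases around pooled summits AAATTT was present at 26 of the 116 marker regions (22.4%), against 47.2% of reproducible and 44.9% of all pooled regions. TGATAA was present in 18.1% of the marker regions, against 19.2% and 20.8%. The marker regions had the higher GC content, and its part in the first difference was not tested.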
